A study of Homo sapiens with 13 samples.

Results

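Methylation of lysine 9 of histone H3 is written by a small group of enzymes and read by the HP1 proteins, and 10 genes of that machinery are described here in HEK293T cells after G9a and GLP were inhibited, WIZ was depleted or G9a was depleted. The genes are EHMT2, EHMT1, WIZ, SUV39H1, SUV39H2, SETDB1, SETDB2, CBX1, CBX3 and CBX5. Their probes were taken by gene symbol from the annotation of an Agilent 8x60K 2-colour array. This gave 20 probes, in 29 spots, of the 42405 probes on the array, and all 20 passed the filter on dim probes. EHMT2, WIZ and SUV39H2 had 1 probe each, and the other 7 genes had several, which are numbered here by brightness within the gene.

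HEK293T cells derive from human embryonic kidney and express SV40 large T antigen. Cells received UNC0638, an inhibitor of the catalytic activity of G9a and GLP, at 1 µM for 48 h and were compared with cells given the same volume of DMSO, in 5 biological replicates. Cells transfected with siRNA against WIZ or against G9a were compared with cells given control siRNA, at 72 h, in 2 biological replicates each. All groups were the same line, with no engineered allele named in the labels, and the siRNAs, bought as ready reagents, were delivered with a lipid. Whether the siRNA treatments shared control RNA was not stated. UNC0638 replicates 1 and 2 and both WIZ siRNA replicates were hybridised in both dye orientations, while UNC0638 replicates 3 to 5 and both G9a siRNA replicates had the treated RNA in Cy5 alone, which makes 7, 4 and 2 arrays.

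G9a, the product of EHMT2, and GLP, the product of EHMT1, form a heterodimer that places mono- and dimethyl marks on lysine 9, largely in euchromatin. WIZ is a zinc finger protein that binds this heterodimer. SUV39H1 and SUV39H2 make the trimethyl mark of pericentromeric heterochromatin, SETDB1 makes it at sites of KRAB zinc finger proteins and at retroelements, and SETDB2 is a relative of SETDB1. HP1 beta, gamma and alpha, encoded by CBX1, CBX3 and CBX5, bind the methylated lysine through their chromodomains. UNC0638 blocks the enzymes and is not directed at their mRNA, so these arrays measure transcript levels and not the mark.

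The probes that the results turn on are shown as their target sequence, 5′ to 3′, as the array files give it. The EHMT2 probe is the one that reads the G9a knockdown. The next 3 are, of the probes with a sequence, those that fell under G9a siRNA while the brightest probe of the same gene rose. No base is marked in these 4 sequences.
EHMT2: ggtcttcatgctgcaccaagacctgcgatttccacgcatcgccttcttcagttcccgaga
EHMT1 probe 2: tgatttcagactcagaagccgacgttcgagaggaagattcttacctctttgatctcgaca
CBX5 probe 2: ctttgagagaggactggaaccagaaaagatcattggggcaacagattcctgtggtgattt
CBX1 probe 3: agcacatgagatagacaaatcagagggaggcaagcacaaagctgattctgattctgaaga
A stretch of 30 bases of EHMT1 probe 1 is shown for contrast, because that probe lies near the end of the gene and holds AATAAA, the usual polyadenylation signal, in capitals.
EHMT1 probe 1: ttgtagcgtgAATAAAtttgccatcacctt
Of the 13 probes here with a sequence in the files, 2 hold AATAAA and 0 hold it on the other strand. Of 18553 probes of 60 bases on the array, 4.37% hold it on the probe strand and 3.76% on the other, and a match is a description only.

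On build 37.1, the build of the array files, the EHMT2 probe lies on the minus strand at chr6:31848474-31848533, 937 bases before the 3′ end of the gene (chr6:31847537-31865464). EHMT1 probe 1 lies at chr9:140730311-140730370, 206 bases before the end of the gene, and EHMT1 probe 2 at chr9:140712526-140712585, 17991 genomic bases before it. CBX5 probe 2 lies at chr12:54639917-54639976, 15185 bases before the end of CBX5, while CBX5 probe 1 at chr12:54624795-54624854 is 63 bases from it. CBX1 probe 3 is placed at chr17:46153403-46153462, 5988 bases before the end of CBX1, but another column of the files places it on chromosome X, so its target is uncertain. The WIZ probe lies at chr19:15532937-15532996, 618 bases before the end of the gene. Exon and untranslated region boundaries were not used here. The RefSeq accessions of 19 probes are still listed under the same gene symbol in the current RefSeq table (GRCh38.p14), and the accession of SETDB1 probe 2, a noncoding transcript record, is not.

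The 20 probes were above background on all 13 arrays in both RNAs, except that EHMT1 probe 3 and SUV39H1 probe 2 were so on 12 of 13 arrays in the treated RNA. Between 47.83% and 91.36% of all probes exceeded background in treated samples, with 57.54% to 92.72% in controls, and the number of arrays limits the precision. All 8 markers of HEK293T cells were above background on all arrays, as were 2 of 11 markers of other cell types (CD14 and CDH5), while 3 of the 11 (ALB, ACTC1 and HBB) were above it on none. By the minimum of the Cy3 background SD the arrays formed 2 sets. It was 4 or 5 on the 8 arrays of UNC0638 replicates 1 and 2 and WIZ siRNA, and 11 on the 5 arrays of UNC0638 replicates 3 to 5 and G9a siRNA. G9a siRNA and WIZ siRNA therefore differ in array set as well as in target, and UNC0638 alone spans both sets. UNC0638 replicate 3 stood apart from the other UNC0638 replicates, with an SD of log2 ratios over all kept probes of 0.50, against 0.17, 0.17, 0.27 and 0.31 in replicates 1, 2, 4 and 5. The SD was 0.48 and 0.61 in the 2 G9a siRNA replicates, with which the log2 ratios of UNC0638 replicate 3 correlated at r = 0.867 and 0.83 across probes, which are not independent replicates.

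The first question was whether each siRNA lowered its own target. All ratios below are log2 of treated over control, the direction taken from the dye labels. The authors' processed table ran the other way, control over treated, on 8 of the 13 arrays. EHMT2 mRNA was 31.6% of control under G9a siRNA and WIZ mRNA was 23.1% of control under WIZ siRNA. Under neither siRNA did the other target pass the limma test (adjusted p under 0.05). In bulk RNA, fewer cells with a transcript and less of it per cell cannot be told apart. In uncorrected spot brightness, EHMT2 was 1098 and 805 in the 2 G9a siRNA samples against 3464.5 and 3362.5 in control siRNA. The same EHMT2 spots read 5914 to 9417.5 in WIZ siRNA samples and 5523 to 7977 in their controls. The brightness of EHMT2 thus dropped on both G9a siRNA arrays and overlapped between treated and control RNA on the arrays of the other treatments.

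**Figure D1:**
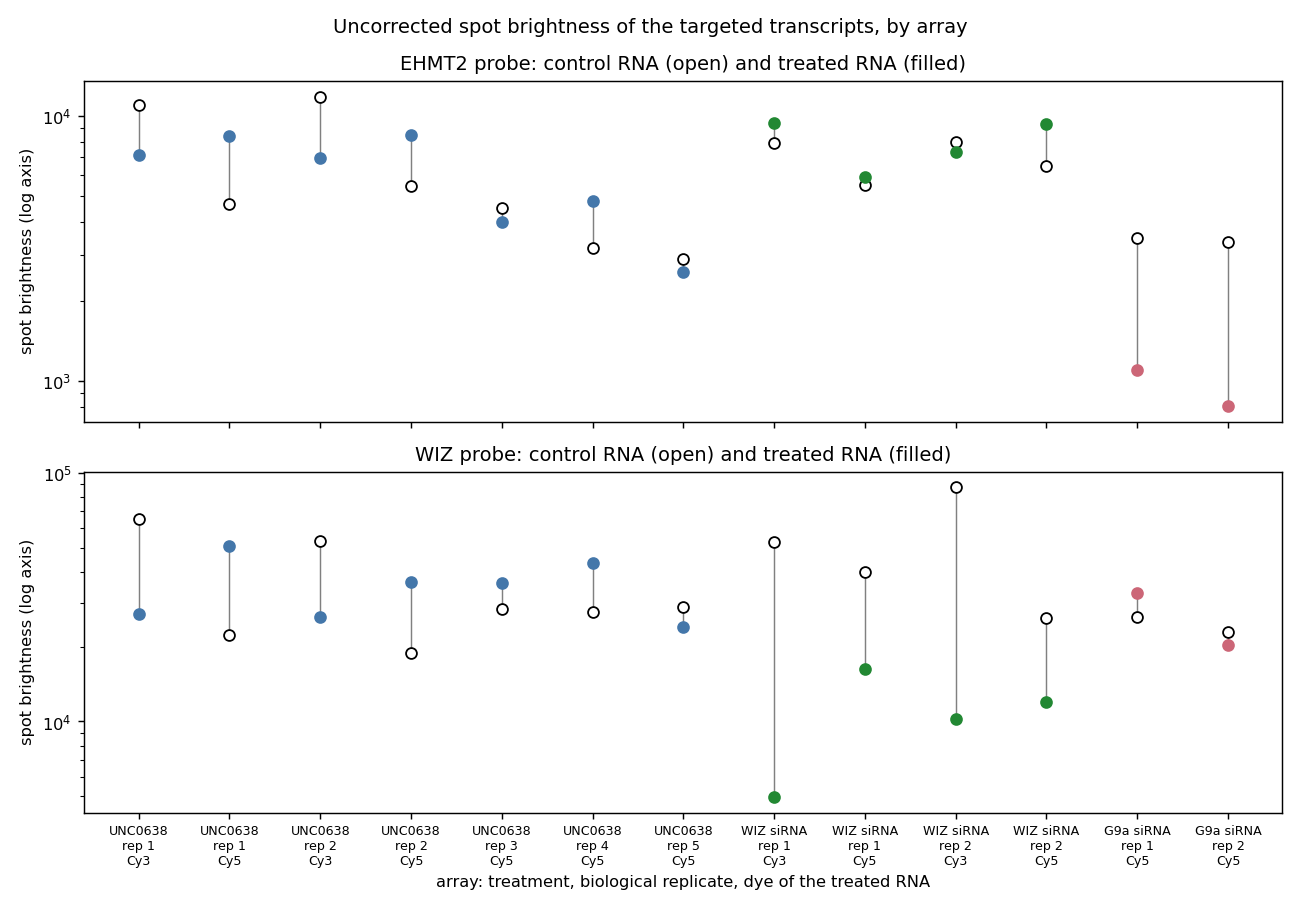
Uncorrected spot brightness (log axis) of the EHMT2 probe (top) and the WIZ probe (bottom) on each of the 13 arrays, with the control RNA as open circles and the treated RNA as filled circles, joined by a line; arrays are named by treatment, biological replicate and dye of the treated RNA. EHMT2 is lower in treated than in control RNA on both G9a siRNA arrays, and WIZ on all 4 WIZ siRNA arrays in either orientation, while the order of the 2 RNAs follows the dye on the swapped arrays of UNC0638.

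After correction, the EHMT2 ratios under G9a siRNA were -1.67 and -1.65, which gave a mean of -1.66 ± 0.01 (SD, n = 2). The limma fit gave an SE of 0.13 and an adjusted p of 0.00289 for EHMT2. Under UNC0638 the EHMT2 ratios were 0.12, -0.18, -0.36, 0.02 and -0.48 in replicates 1 to 5, with a mean of -0.18 ± 0.25 (SD, n = 5) and an adjusted p of 0.277. EHMT2 was below control in 3 of 5 UNC0638 replicates, so its values lay on both sides of 0. Under WIZ siRNA the 2 EHMT2 values were 0.34 and 0.28 (adjusted p = 0.594). These 2 means hide a reversal with the dye. With the WIZ siRNA sample in Cy3 the EHMT2 ratios were 1.23 and 0.73, and with it in Cy5 they were -0.56 and -0.17, so the sign of EHMT2 under WIZ siRNA followed the orientation in both replicates.

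The WIZ probe read 4966 and 10256 in WIZ siRNA samples labelled with Cy3, against 52904 and 87324 in their controls. It read 16220 and 11995 in WIZ siRNA samples labelled with Cy5, against 39751 and 26106. The corrected WIZ ratios were -2.33 and -2.01 in the first orientation and -2.20 and -1.93 in the swapped one, so here both orientations gave close values. The mean was -2.12 ± 0.21 (SD, n = 2 biological replicates; SE 0.18, adjusted p = 0.00181 in limma). Under G9a siRNA the WIZ ratios were 0.12 and 0.05 (mean 0.08, 95% interval -0.33 to 0.50, adjusted p = 0.765). Under UNC0638 they were 0.03, -0.12, 0.14, 0.06 and -0.74, of which the lowest was replicate 5, and the mean of -0.13 had an adjusted p of 0.575. WIZ mRNA was therefore changed, by this test, in its own knockdown, and the call was lost without WIZ siRNA replicate 1 (-1.97, adjusted p = 0.0535).

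Over the 20 probes, the test called 0 under UNC0638, 1 under WIZ siRNA and 12 under G9a siRNA (8 higher, 4 lower). The 12 lay in 9 of the 10 genes, counting a gene by any of its probes. With the brightest probe per gene, 6 of 10 were called under G9a siRNA, where 33.2% of all such probes were. Under UNC0638, 5 of the 20 probes (25%) had an unadjusted limma p under 0.05, as did 20.1% of all kept probes. With median centring in place of loess the G9a siRNA calls were 7 higher and 6 lower, where 33.7% of all kept probes were called. The share of all 34619 kept probes called was 3.24% under UNC0638, 0.508% under WIZ siRNA and 33.8% under G9a siRNA. By direction, 0.445% were lower under WIZ siRNA, and 15% were higher and 18.8% lower under G9a siRNA. The median log2 ratio of the 20 probes was 0.02, 0.05 and 0.14 in the 3 treatments, and that of all kept probes -0.01, 0.02 and -0.01. The median size of the log2 ratio, whichever its sign, was 0.11, 0.16 and 0.57 for these probes and 0.08, 0.08 and 0.21 for all probes. The calls under G9a siRNA rest on replicate 2: without it, limma called 0 of the 20 probes (10 at an unadjusted p under 0.05) and 0% of all kept probes, and without replicate 1 it called 10. With each treatment fitted on its own replicates, 10 probes were called under WIZ siRNA, where 25.6% of all probes were.

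**Figure D2:**
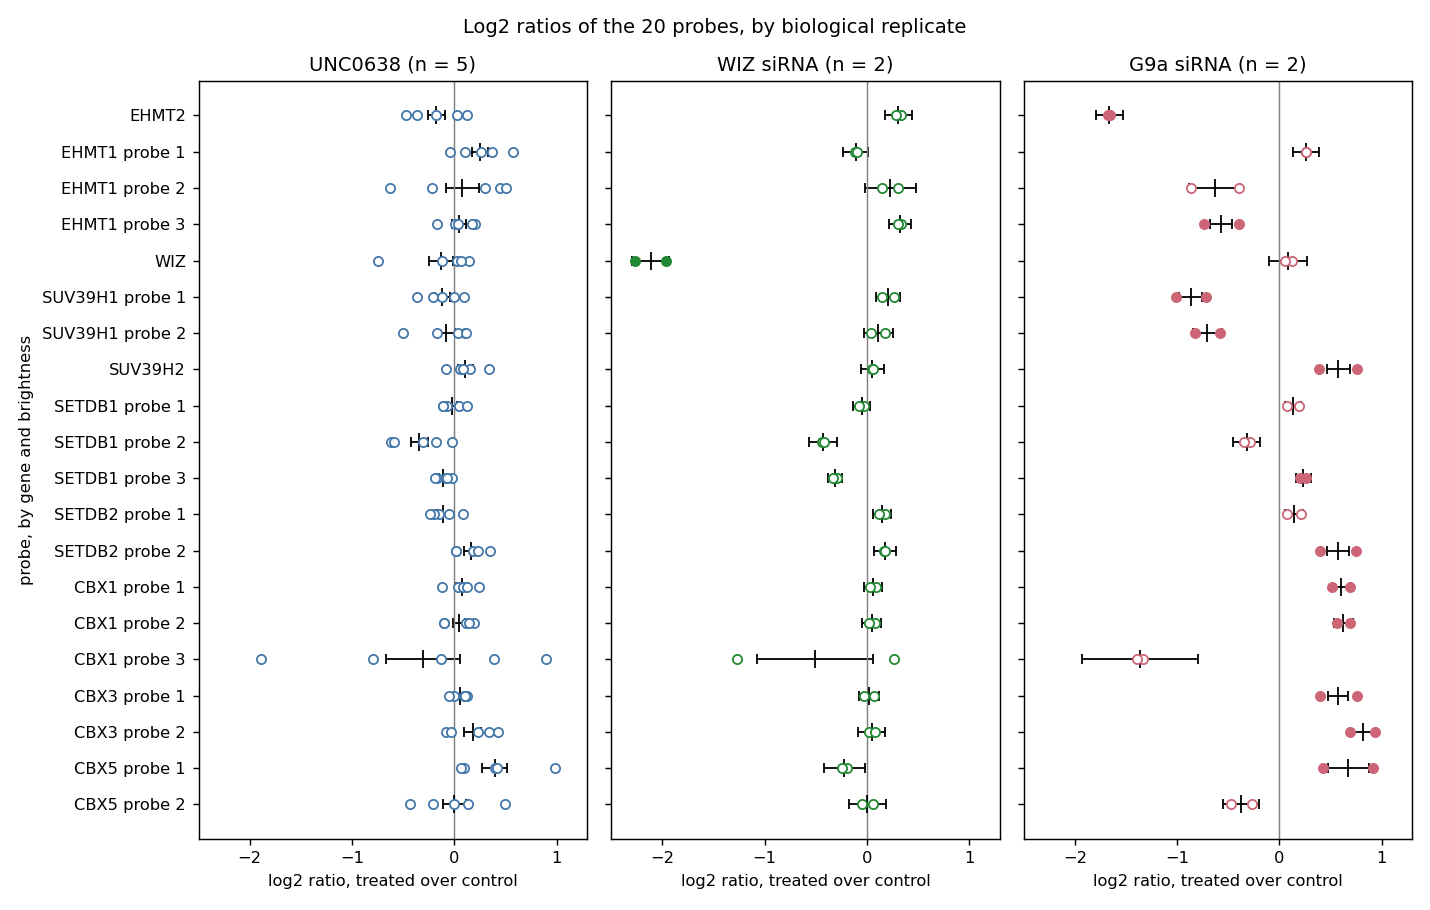
Log2 ratio of treated over control (x axis) for each of the 20 probes (y axis) under UNC0638, WIZ siRNA and G9a siRNA; circles are biological replicates, filled where limma called the probe at an adjusted p under 0.05, and black bars give the mean and its SE from the fit. Under WIZ siRNA the WIZ probe alone is filled, under UNC0638 none is, and under G9a siRNA 12 are, with EHMT2 lowest at -1.66.

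EHMT1 encodes GLP, the partner of G9a, and its 3 probes did not give 1 answer under G9a siRNA. EHMT1 probe 1 read 0.26 in both replicates (adjusted p = 0.144). EHMT1 probe 2 read -0.40 and -0.87 (mean -0.63, adjusted p = 0.0788), and EHMT1 probe 3 read -0.40 and -0.74. Probe 3, which the files match to the transcript NM_001145527 without coordinates, was the EHMT1 probe that passed the test (mean -0.57 ± 0.24 SD, n = 2, SE 0.11, adjusted p = 0.00512). Probe 1 exceeded probe 2 by 0.66 and 1.13 in the 2 replicates, so the gap within the gene was larger than the gap between the replicates.

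Under UNC0638 the EHMT1 probe nearest the end of the gene, probe 1, read 0.10, -0.04, 0.57, 0.37 and 0.26 (mean 0.25 ± 0.24 SD, n = 5, adjusted p = 0.135). The 3 values from the second array set were the 3 highest. With those 3 replicates alone the mean was 0.40 and passed the test (adjusted p = 0.0343). These replicates were read in Cy5 alone. In replicates 1 and 2, EHMT1 probe 1 read -0.01 and -0.26 with the UNC0638 sample in Cy3, and 0.21 and 0.18 in Cy5. Every array of this probe above control thus had the UNC0638 sample in Cy5. Probe 2 ranged from -0.63 to 0.50 and probe 3 from -0.17 to 0.20 under UNC0638, and neither lay on 1 side of 0 in every replicate. Under WIZ siRNA the EHMT1 means were -0.11, 0.23 and 0.32 for probes 1 to 3, with adjusted p-values of 1, 1 and 0.383. EHMT1 probe 2 changed sign with the dye, at 0.94 and 0.47 with the WIZ siRNA sample in Cy3 and -0.33 and -0.17 in Cy5. An effect of UNC0638 or WIZ siRNA on GLP mRNA was thus not called with any of the 3 probes when all replicates entered the fit.

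SUV39H1 and SUV39H2, the enzymes of pericentromeric heterochromatin, went opposite ways under G9a siRNA. SUV39H1 probe 1 read -0.72 and -1.02 (mean -0.87 ± 0.21 SD, n = 2, SE 0.12, adjusted p = 0.00316), which is 54.8% of control. SUV39H1 probe 2 read -0.58 and -0.83 (mean -0.71, adjusted p = 0.00623). Both probes of SUV39H1 fell in both replicates. SUV39H2 read 0.39 and 0.76 (mean 0.58 ± 0.26 SD, n = 2, SE 0.11, adjusted p = 0.0056), or 149.0% of control. SUV39H2 rose in both replicates, and replicate 2 was the farther from 0 for all of these probes.

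Neither SUV39H gene was called under UNC0638. SUV39H1 probe 1 read 0.09, -0.21, -0.36, 0.00 and -0.12 (mean -0.12, 95% interval -0.28 to 0.04), and SUV39H2 read 0.05, 0.15, 0.08, -0.08 and 0.34 (mean 0.11, 95% interval -0.05 to 0.27). Under WIZ siRNA the SUV39H1 probes repeated the reversal of EHMT2: probe 1 read 0.97 and 0.62 when the treated sample carried Cy3, and -0.45 and -0.33 when it carried Cy5. Probe 2 read 0.91 and 0.58 against -0.55 and -0.49. Averaged over the orientations, the SUV39H1 means were 0.21 and 0.11 (adjusted p = 0.788 and 1).

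SETDB1, the enzyme recruited by KRAB zinc finger proteins, had ratios no farther from 0 than -0.61 in any replicate. SETDB1 probe 3 read 0.21 and 0.26 under G9a siRNA and passed the test (mean 0.23, SE 0.07, adjusted p = 0.0302). With median centring in place of loess its mean was 0.0021 (adjusted p = 0.988). SETDB1 probe 1 read 0.19 and 0.08 (adjusted p = 0.239). SETDB1 probe 2, of the noncoding record, read -0.29 and -0.35 (adjusted p = 0.0967). The direction therefore differed among the 3 SETDB1 probes under G9a siRNA.

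SETDB1 probe 2 had the lowest adjusted p of the 20 probes under UNC0638, 0.0688. It read -0.18, -0.02, -0.61, -0.59 and -0.31, below control in 5 of 5 replicates (mean -0.34 ± 0.26 SD, SE 0.09), and it passed the test with replicates 3 to 5 alone (mean -0.50, adjusted p = 0.0231). Under WIZ siRNA it read -0.44 and -0.42 (adjusted p = 0.327), and SETDB1 probe 3 read -0.30 and -0.33 (adjusted p = 0.12). Both lay below control in both replicates, and neither passed the test across all probes. For SETDB1 probe 3 these values average over a sign that changed with the dye. It read 0.03 and 0.05 in WIZ siRNA samples labelled with Cy3, and -0.63 and -0.71 in Cy5. SETDB1 probe 2 was below control in both orientations, at -0.80 and -0.67 in Cy3 and -0.08 and -0.17 in Cy5.

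SETDB2, whose product is the relative of SETDB1, was higher under G9a siRNA by 1 of its 2 probes. SETDB2 probe 2 read 0.39 and 0.75 (mean 0.57 ± 0.25 SD, n = 2, SE 0.11, adjusted p = 0.00499). SETDB2 probe 1, 3168 bases before the end of the gene, read 0.07 and 0.21 (adjusted p = 0.255). Under UNC0638, SETDB2 probe 2 was above control in 5 of 5 replicates, from 0.02 to 0.35 (adjusted p = 0.232). In replicates 1 and 2 these values average over a sign that changed with the dye. There SETDB2 probe 2 read 0.17 and 0.22 in UNC0638 samples labelled with Cy3, and -0.13 and -0.18 in the swapped orientation. Under WIZ siRNA it read 0.17 and 0.18 (adjusted p = 0.851).

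The HP1 genes made up 5 of the 8 higher calls under G9a siRNA, where 15% of all kept probes were called higher. The remaining HP1 probes, CBX1 probe 3 and CBX5 probe 2, read lower and were not called. Whether HP1 genes were called more often than other genes was not tested. CBX3, which encodes HP1 gamma, read 0.39 and 0.75 with probe 1 (mean 0.57, adjusted p = 0.00372) and 0.69 and 0.93 with probe 2 (mean 0.81, adjusted p = 0.00343). The CBX3 mRNA was 148.8% and 175.6% of control by these probes, and both rose in both replicates. CBX1, which encodes HP1 beta, read 0.52 and 0.69 with probe 1 (mean 0.61, adjusted p = 0.00335) and 0.56 and 0.69 with probe 2 (mean 0.63, adjusted p = 0.00328). These 2 CBX1 probes differed from each other by no more than 0.05 in either replicate.

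CBX1 probe 3 went the other way, at -1.33 and -1.39 (mean -1.36, adjusted p = 0.0937). Its values were erratic elsewhere: -0.13, 0.38, -1.89, -0.79 and 0.90 under UNC0638, and 0.26 and -1.27 under WIZ siRNA. On 1 array of WIZ siRNA replicate 2 this single spot read 31652 in treated and 113699 in control RNA, the highest of the 13 arrays in both, and the ratio there was -2.94 against 0.40 on the swapped array. With a residual spread this wide, a log2 ratio of -1.36 did not pass the test.

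CBX5, which encodes HP1 alpha, split by probe. CBX5 probe 1, at the end of the gene, read 0.43 and 0.91 under G9a siRNA (mean 0.67, SE 0.20, adjusted p = 0.0288). Without replicate 1 its adjusted p was 0.0519. CBX5 probe 2 read -0.27 and -0.48 (mean -0.37, adjusted p = 0.137). Under UNC0638, CBX5 probe 1 was above control in 5 of 5 replicates, at 0.09, 0.07, 0.99, 0.40 and 0.41. The mean was 0.39 ± 0.37 SD (adjusted p = 0.14), with replicate 3 the highest. In replicates 1 and 2 the sign changed with the dye. UNC0638 samples labelled with Cy3 gave -0.16 and -0.17, and the same samples labelled with Cy5 gave 0.35 and 0.30. CBX5 probe 1 was read in Cy5 alone in replicates 3 to 5, so every array above control had the UNC0638 sample in Cy5. Under WIZ siRNA it read -0.20 and -0.24 (adjusted p = 1), and all 4 of its arrays were below control.

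For EHMT1, CBX1 and CBX5 the files give 2 probes a distance from the end of the gene. Under G9a siRNA the probe nearer the end was higher in all 3. The farther CBX1 probe is probe 3, whose target, and so its distance, is uncertain. The difference, nearer minus farther, was 0.66 and 1.13 for EHMT1, 1.85 and 2.08 for CBX1, and 0.70 and 1.39 for CBX5. This pattern was noticed after the values were seen, so the same difference was taken over all 662 genes with 2 kept probes at least 2000 genomic bases apart. The nearer probe was higher in 63.6% and 68.1% of those genes in the 2 G9a siRNA replicates, with median differences of 0.14 and 0.23. It was higher in 66.3% in UNC0638 replicate 3 and in 38.4% to 51.8% in the other UNC0638 replicates. In WIZ siRNA replicates 1 and 2 it was higher in 39.4% and 34.9%. The 3 genes lay between the 85th and the 99.2nd percentile of the 662 in the G9a siRNA replicates. In the UNC0638 and WIZ siRNA replicates all 3 ranged widely. CBX1 lay from the 3.63rd to the 99.8th percentile, EHMT1 from the 2.72nd to the 99.1st and CBX5 from the 14.8th to the 97.6th. Probes far from the end thus tended to read lower across the array in both G9a siRNA replicates and in UNC0638 replicate 3. The part of this in the ratios of EHMT1, CBX1 and CBX5 was not tested.

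Base composition also moved with the ratios on the G9a siRNA arrays. Over all kept probes with a sequence, the trend at 55% GC, the content of the EHMT2 probe and of SUV39H1 probe 1, was -0.35 and -0.48 in the 2 replicates. At 35% GC, the content of the WIZ probe and of CBX1 probe 1, it was 0.22 and 0.32. With the trend removed, the EHMT2 mean under G9a siRNA was -1.25, that of SUV39H1 probe 1 was -0.45 and that of CBX1 probe 1 was 0.34. These 3 kept their sign at a smaller size, while that of SUV39H2 was 0.65. The means of the WIZ probe and of SETDB1 probe 1, neither of them called, changed sign, from 0.08 to -0.18 and from 0.13 to -0.13.

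**Figure D3:**
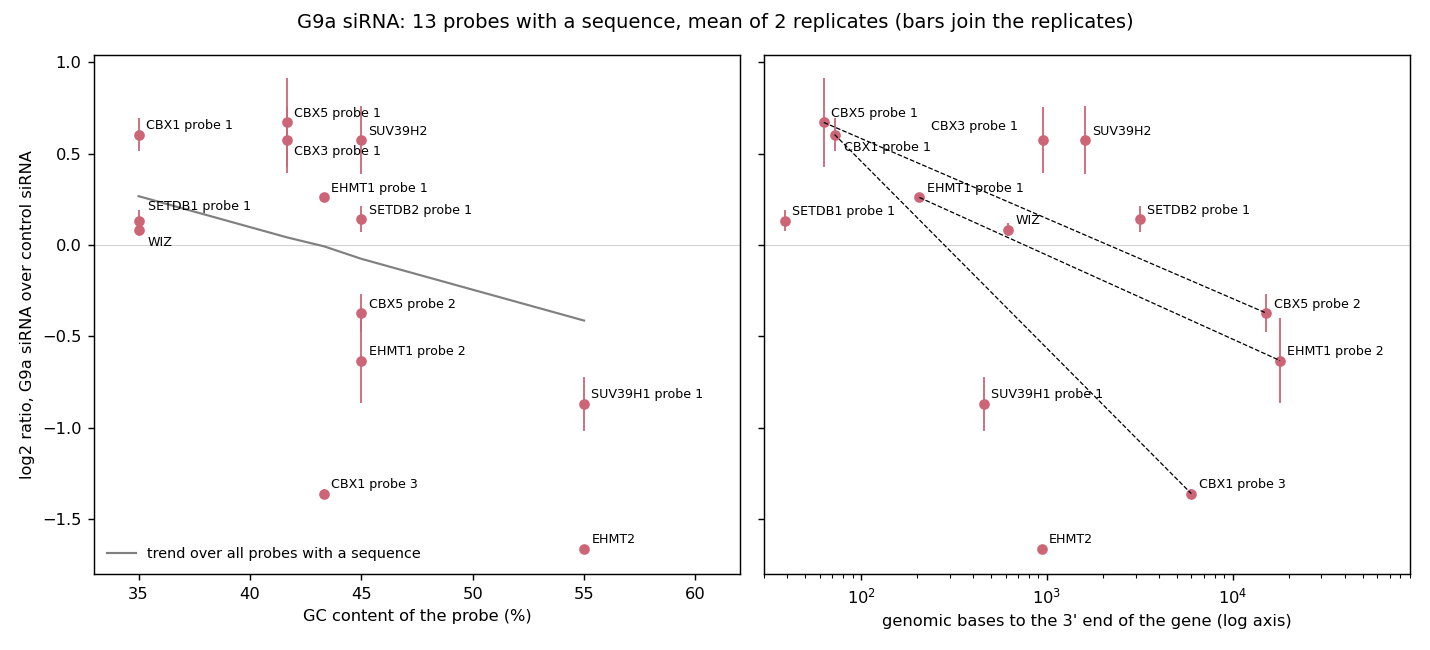
Log2 ratio of G9a siRNA over control siRNA (y axis, mean of 2 replicates, with vertical bars joining the replicates) for the 13 probes with a sequence, against the GC content of the probe in percent (left) and the genomic bases from the probe to the 3′ end of the gene on a log axis (right). The grey line is the mean of the GC trends over all kept probes with a sequence, and dashed lines join the 2 probes of EHMT1, CBX1 and CBX5, of which the one nearer the end is higher.

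The dye effect of each probe was measured on the 4 dye-swapped pairs, as the part of the ratio that keeps its sign by dye and not by treatment. Over all kept probes its SD was 0.17, and its size passed 0.2 in 22.0% of them. It was -0.29 for EHMT2, -0.36 and -0.40 for the 2 SUV39H1 probes, and -0.31 for SETDB1 probe 3. For CBX1 probe 3 it was -0.42, but 0.0014 without the pair of WIZ siRNA replicate 2, which holds the outlying spot. It was 0.33 for CBX3 probe 1 and 0.26 for CBX1 probe 1. Within the swapped pairs it was not constant: for EHMT2 it was 0.03 and 0.14 in the UNC0638 pairs and -0.90 and -0.45 in the WIZ siRNA pairs. The G9a siRNA arrays have a single orientation, so a dye effect there cannot be told apart from the treatment. With the mean dye effect subtracted, SUV39H1 probe 2 (-0.31, adjusted p = 0.116) and CBX3 probe 1 (0.24, adjusted p = 0.176) lost their calls under G9a siRNA, and the other 10 calls were made again.

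**Figure D4:**
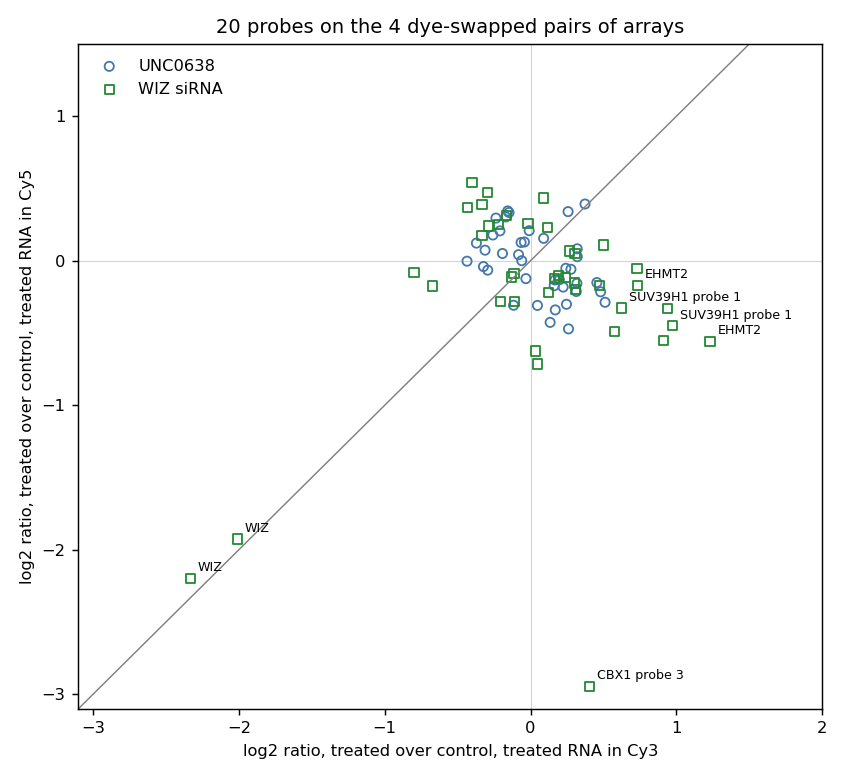
Log2 ratio of treated over control with the treated RNA in Cy3 (x axis) against the same with the treated RNA in Cy5 (y axis), for the 20 probes on the 2 dye-swapped pairs of UNC0638 (blue circles) and the 2 of WIZ siRNA (green squares); the grey line marks equal values. The WIZ probe under WIZ siRNA lies on the line near -2, whereas EHMT2 and SUV39H1 probe 1 under WIZ siRNA lie below and to the right, positive in Cy3 and negative in Cy5.

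The treatments were then set against each other, with the difference in hours (48 h against 72 h) inside the contrasts with UNC0638, and the array set inside all 3. G9a siRNA minus UNC0638 called 9 of the 20 probes (5 higher, 4 lower), where 12.5% of all probes were called (5.86% higher, 6.66% lower). The lower 4 were EHMT2 (difference -1.49, 95% interval -1.84 to -1.14, adjusted p = 0.0139), EHMT1 probe 3 (-0.62) and the 2 SUV39H1 probes (-0.75 and -0.62). The higher 5 were SETDB1 probe 3 (0.34), CBX1 probes 1 and 2 (0.53 and 0.58) and CBX3 probes 1 and 2 (0.52 and 0.63). CBX5 probe 1 did not differ by the test (0.28, 95% interval -0.25 to 0.81, adjusted p = 0.47). Within the second array set, with UNC0638 replicates 3 to 5 alone, limma called 0 of the 20 (12 at an unadjusted p under 0.05) and 0.00289% of all probes. The EHMT2 difference was then -1.39 (adjusted p = 0.0995). With the dye effect subtracted, SUV39H1 probe 2 (-0.46, adjusted p = 0.0925) and CBX3 probe 1 (0.39, adjusted p = 0.125) lost their calls. Without G9a siRNA replicate 2 the count was 0 (8 at an unadjusted p under 0.05), and without UNC0638 replicate 1, 2 or 4 it was 4, 2 or 3, where 2.98%, 2.06% and 2.27% of all probes were called.

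G9a siRNA minus WIZ siRNA called 11 of the 20 probes (7 higher, 4 lower), where 20.4% of all probes were called (8.85% higher, 11.5% lower). WIZ was the widest, higher by 2.20 (95% interval 1.62 to 2.79, adjusted p = 0.00845), and EHMT2 was lower by the fit at -1.97 (adjusted p = 0.00667). EHMT1 probe 3 (-0.89) and both SUV39H1 probes (-1.07 and -0.82) were lower, and SUV39H2 (0.52), SETDB1 probe 3 (0.55), both main CBX1 probes (0.55 and 0.58) and both CBX3 probes (0.55 and 0.77) were higher. Each siRNA lies in 1 array set of its own, so set and siRNA cannot be told apart in this contrast except through UNC0638. With the set as a block, limma called 0 (10 at an unadjusted p under 0.05) and 0.00578% of all probes. The EHMT2 difference was then -1.73 (adjusted p = 0.129). With the mean dye effect subtracted, SUV39H1 probe 2 (-0.42, adjusted p = 0.169), CBX1 probe 1 (0.29, adjusted p = 0.128) and CBX3 probe 1 (0.22, adjusted p = 0.434) lost their calls. With the GC trend removed, CBX1 probe 1 lost its call (0.25, adjusted p = 0.104). Leaving out G9a siRNA replicate 2 or either WIZ siRNA replicate also gave 0 calls (10 to 12 at an unadjusted p under 0.05).

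WIZ siRNA minus UNC0638 called 1 of the 20 probes, WIZ itself (-1.99, 95% interval -2.48 to -1.50, adjusted p = 0.00522), where 0.705% of all probes were called (0.621% lower). EHMT2 was higher under WIZ siRNA by 0.48 (95% interval 0.13 to 0.84) but did not pass over all probes (adjusted p = 0.291). The intervals of the CBX1 and CBX3 differences included 0. CBX5 probe 1 was lower under WIZ siRNA by the fit at -0.61 (95% interval -1.15 to -0.08, adjusted p = 0.386). Under UNC0638 this probe was above control in Cy5 alone. With the mean dye effect subtracted, limma called 1 of the 20 probes again, WIZ (-1.895, adjusted p = 0.00851). The WIZ call was lost without either WIZ siRNA replicate, at differences of -1.84 and -2.14 with adjusted p-values of 0.0927 and 0.0736.

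Among 41 other genes of the same chemistry, all measured, the test by the brightest probe called 2 under UNC0638 (1 higher, 1 lower), 1 under WIZ siRNA (lower) and 18 under G9a siRNA (12 higher, 6 lower). Under UNC0638, ATF7IP2, a relative of the SETDB1 cofactor ATF7IP, was lower (-0.39, SE 0.07, adjusted p = 0.023) and TASOR, a subunit of the HUSH silencing complex, was higher (0.33, adjusted p = 0.0366), each in 5 of 5 replicates. Under WIZ siRNA, PRDM16, a PR-domain protein linked to lysine 9 methylation, was lower (-0.67, adjusted p = 0.043). Under G9a siRNA, ATRX, a chromatin remodeller that binds HP1, was higher by 1.31 (adjusted p = 0.00317). MECOM, another PR-domain protein, was higher by 1.08 (adjusted p = 0.00364), and the deacetylase HDAC2 by 0.94 (adjusted p = 0.00462). The corepressor CTBP1 was lower at -0.91 (adjusted p = 0.00417). By group, G9a siRNA changed 4 of 11 partners of G9a and GLP, 3 of 7 of SETDB1 and the HUSH complex, 5 of 10 HP1 partners, 3 of 10 demethylases and 3 of 3 PR-domain genes. These shares stand beside the 33.8% of all kept probes called for G9a siRNA (15% higher, 18.8% lower). Counting only the brightest probe of each gene on the array, the called share was 33.2% for G9a siRNA. That share was 3.65% for the inhibitor and 0.615% for WIZ siRNA. Whether the 41 genes were called more often than other genes was not tested.

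The probes whose ratios over the 9 biological replicates were most like those of EHMT2 were of EEFSEC (Pearson r = 0.994), GLT25D1 (r = 0.993) and CHST1 (r = 0.992), out of 24607 probes compared. Their mean log2 ratios under G9a siRNA were -1.06, -1.11 and -0.23, so likeness in shape did not mean a like size. For WIZ they were PTPRO (r = 0.982), CPSF7 (r = 0.98) and TADA3 (r = 0.976), with means under WIZ siRNA of -0.17, -0.56 and -0.54. These values describe an order over 9 points of which 2 carry most of the spread, and they are given with no test.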

How the data were processed

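The intensities deposited by the authors are mean spot and median background pixel brightness, uncorrected per the file headers. Log2 ratios by the authors stand beside them, and the authors' series table holds log10 ratios whose scale and centring are not given in the sources used here. That table ran as control over treated on 8 arrays (r with the arrays' own log2 ratios from -0.877 to -0.918) and as treated over control on 5 (0.925 to 0.971), with column medians from -0.01 to 0.00818. Channel 1 was taken as Cy3. Scanner and slides are not given in the sources used here.

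Background was corrected with normexp (offset 50), followed by loess with control spots at weight 0 (limma 3.58.1, R 4.3.3). Of 62976 spots, 4259 were controls. Spots of a probe were averaged, then both arrays of a dye swap. A probe was kept where its signal passed the background by 2.6 SDs on 50% of the arrays of 1 of the 6 RNA groups. The 9 replicates entered 1 limma fit with a mean per treatment (6 residual and 3.28 prior degrees of freedom). Benjamini-Hochberg adjustment ran over all 34619 kept probes, and an adjusted p under 0.05 is a call. The siRNA spread is thus largely borrowed from UNC0638.

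Every probe of the 10 genes was reported. For EHMT2 and WIZ the 3 most alike probes were named, and of the 41 other genes at most the 4 largest calls per treatment. Genes and lists were chosen with earlier results of these data known. One further marker of other cell types is not reported here.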

Additional observations from a re-analysis of the deposited data

How the results depend on the processing

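Of 34 called probe values (treatment means and contrasts), 487 alternatives gave the same direction and call in 320, the same direction without the call in 167 and the opposite direction in 0. Leaving out 1 replicate in turn gave 0 to 10 calls under G9a siRNA (12 with all), 0 to 1 under WIZ siRNA (1), 0 to 1 under UNC0638 (0), 0 to 12 for G9a siRNA minus UNC0638 (9), 0 to 11 for G9a siRNA minus WIZ siRNA (11) and 0 to 1 for WIZ siRNA minus UNC0638 (1). A lone replicate is assumed there to vary like the other groups. With the brightest probe per gene (10 tested), 6, 5 and 6 were called under G9a siRNA, against UNC0638 and against WIZ siRNA. The shares of all such probes called were 33.2%, 12.6% and 19.8%. The authors' log2 ratios gave 4 and 7 for the last 2 contrasts, where 5.72% and 13.2% of all probes were called. The authors' log10 table gave 1 and 5 for them, where 2.62% and 12.5% of all probes were called. It gave 0 under WIZ siRNA (WIZ at -2.45, adjusted p = 0.0726) and for WIZ siRNA minus UNC0638 (3 and 4 at an unadjusted limma p under 0.05). In those 2 comparisons 0.152% and 0.395% of all probes were called. Median centring gave 5 for G9a siRNA minus UNC0638, and 7 higher and 6 lower under G9a siRNA, where 15.1% and 33.7% of all probes were called. Fits on own replicates gave 10 under WIZ siRNA and 0 for G9a siRNA minus UNC0638 (11 unadjusted), where 25.6% and 0.0231% of all probes were called. The array set as a block gave 1 and 0 for the G9a siRNA contrasts, where 0.832% and 0.00578% of all probes were called. UNC0638 replicates 1 and 2 alone gave 15 for G9a siRNA minus UNC0638, where 37.8% of all probes were called. Replicates 3 to 5 alone gave 0 there, 0 for WIZ siRNA minus UNC0638 (8 unadjusted) and 2 under UNC0638. With them 0.00289%, 0.277% and 4.67% of all probes were called. The cause of these changes was not tested. The replicate block gave 15 for G9a siRNA minus UNC0638 and 16 for G9a siRNA minus WIZ siRNA, where 38.1% and 40.9% of all probes were called. Deviations of same-numbered samples from their treatment means correlated at r from -0.277 to 0.365. With 2 replicates per siRNA the 2 deviations mirror each other, so these r cannot show whether samples were paired. The main fit assumed no pairing. SETDB1 probe 3 under G9a siRNA ranged from 0.0021 to 0.54. The GC check on counts is void, since 13 of 20 probes have a sequence. Without the dim-probe filter and without background correction no count moved by over 1.5 times.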
